A study of Arabidopsis thaliana with 24 samples.

Results

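The JAZ proteins (jasmonate-ZIM-domain proteins) are the repressors of jasmonate signalling in Arabidopsis thaliana. Of their genes, 10, JAZ1 to JAZ10, were followed here through an ozone exposure. The members were taken by locus identifier from the count tables, which makes 10 of 32678 loci. JAZ1 is AT1G19180, JAZ2 AT1G74950, JAZ3 AT3G17860, JAZ4 AT1G48500, JAZ5 AT1G17380, JAZ6 AT1G72450, JAZ7 AT2G34600, JAZ8 AT1G30135, JAZ9 AT1G70700 and JAZ10 AT5G13220. All 10 passed the minimum count and so were tested. Levels are given as CPM, read counts scaled to the TMM-adjusted size of the library.

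RNA was sequenced from whole rosettes of 3-week-old plants, each library being made from a pool of up to 15 rosettes of 1 line. The 8 groups of 3 biological replicates are C24, Te, CT101 and Col-0 plants exposed to 350 ppb ozone for 2 h and the unexposed controls of the same 4 lines. C24 and Te are natural accessions that the series sets against each other for their unlike sensitivity to ozone, Col-0 is the reference accession, and the labels do not give the origin of CT101. No line is labelled as carrying a mutation or a transgene. The labels do not say how long after the exposure the rosettes were frozen, so a level under ozone belongs to 1 time of unknown delay. Each replicate is a pool, so the spread between plants of a pool is not seen.

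JAZ proteins bind MYC2 and related transcription factors and hold them silent with the adaptor NINJA and the corepressor TOPLESS. When the hormone jasmonoyl-isoleucine accumulates, it joins a JAZ protein to the F-box receptor COI1, the JAZ protein is degraded, and the freed MYC factors switch on their targets. JAZ genes are themselves among those targets, so the repressors are made anew after a stimulus and limit it.

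What a JAZ protein does with the hormone is set in its Jas region, which holds the short degron that COI1 and the hormone grip and the helix that binds MYC factors. The coding bases of 57-base stretches of this region are shown for 7 members because these differ in how many JAZ1 degron residues they share. Whether a member that shares fewer of them has a working degron was not tested. They were read from the RefSeq coding models on the TAIR10.1 assembly, 5′ to 3′ on the coding strand, and the capitals mark the 6 codons at the position of the JAZ1 degron.
JAZ1: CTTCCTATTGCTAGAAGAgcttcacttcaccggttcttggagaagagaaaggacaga
JAZ10: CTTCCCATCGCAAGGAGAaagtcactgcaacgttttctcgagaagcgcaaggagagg
JAZ5: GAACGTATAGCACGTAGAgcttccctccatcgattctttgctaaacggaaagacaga
JAZ3: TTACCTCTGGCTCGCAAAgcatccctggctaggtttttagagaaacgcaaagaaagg
JAZ9: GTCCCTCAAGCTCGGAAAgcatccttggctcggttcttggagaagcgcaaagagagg
JAZ7: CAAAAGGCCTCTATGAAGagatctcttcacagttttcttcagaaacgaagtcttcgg
JAZ8: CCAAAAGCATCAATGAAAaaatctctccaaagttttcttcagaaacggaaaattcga
In JAZ1, JAZ2 and JAZ10 all 6 codons encode the residues of JAZ1. In JAZ3, JAZ5 and JAZ6 4 of the 6 do, and in JAZ4 and JAZ9 3 of the 6. In JAZ7 and JAZ8 0 of the 6 encode the JAZ1 residue, and JAZ8 is known as a repressor that resists hormone-dependent degradation. Codons are counted from the first codon of the longest RefSeq coding model, and the stretch shown covers codons 201 to 219 of JAZ1, 204 to 222 of JAZ10, 119 to 137 of JAZ7 and 102 to 120 of JAZ8.

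MYC factors bind the G-box, whose letters CACGTG read the same on both strands. In the 250 bases before the RefSeq gene start it occurred in 4 of the 10 members, once each in JAZ2, JAZ7 and JAZ8 and 2 times in JAZ3, where 6.49% of 27443 promoters of the same length held it. The variant CACATG, searched on both strands, occurred in JAZ9 and JAZ10 and in 11.1% of all promoters. The upstream bases of JAZ3, which fell under ozone, and of JAZ8, which rose, are shown with the G-box in capitals, on the plus strand of TAIR10.1 at chr3:6119457-6119706 and chr1:10596102-10596351.
JAZ3: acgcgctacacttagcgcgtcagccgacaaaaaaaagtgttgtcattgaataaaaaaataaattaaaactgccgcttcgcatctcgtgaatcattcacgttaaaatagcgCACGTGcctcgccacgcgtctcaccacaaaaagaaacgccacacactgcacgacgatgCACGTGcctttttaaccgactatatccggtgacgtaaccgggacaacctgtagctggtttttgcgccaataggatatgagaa
JAZ8: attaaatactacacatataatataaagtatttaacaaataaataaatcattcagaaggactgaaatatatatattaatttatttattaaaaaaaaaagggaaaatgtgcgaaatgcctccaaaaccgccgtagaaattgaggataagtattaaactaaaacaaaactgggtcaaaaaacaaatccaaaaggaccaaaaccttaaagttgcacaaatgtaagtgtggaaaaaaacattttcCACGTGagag
JAZ3 and JAZ8 thus both hold the motif, although ozone lowered the transcript of JAZ3 and raised that of JAZ8. A match of letters is a description of these windows and was not tested as a binding site.

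Of the 10 members 7 changed under ozone in C24, 9 in Te, 7 in CT101 plants and 8 in Col-0 plants, most of them upward and led by JAZ1. Here called means an adjusted p below 0.05, where p comes from the quasi-likelihood F test of edgeR and the Benjamini-Hochberg adjustment runs over 20554 genes. Every adjusted p in the text comes from that fit unless another tool is named. In C24 6 members rose and 1 fell, where 25.6% of all genes tested rose and 22.2% fell. In Te 8 rose and 1 fell, against 32% and 30.9% of all genes. In CT101 6 rose and 1 fell, against 32.9% and 32.4%. In Col-0 8 rose and 0 fell, against 30.0% and 26.9%. The median log2 fold change of the members was 0.99 in C24, 2.65 in Te, 2.05 for CT101 and 2.51 for Col-0, while the median of all genes lay between -0.03 and -0.01. Averaged over the 4 lines, 7 members rose and 1 fell, against 37.6% and 39.3% of all genes. Without C24 ozone replicate 3 the count in C24 was 4.

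Totals ran from 13633768 to 25789925 counts per library. On the first principal component of all genes, with 58.1% of the variance, ozone libraries lay between 41.4 and 131.7 and control libraries between -123.6 and -50.1. In every line the lowest ozone library on this component was replicate 2, and C24 ozone replicate 2 stood apart at 41.4, where the other C24 ozone libraries lay at 95.1 and 108.7. The summed level of 3 leaf markers, RBCS1A, LHCB2.1 and GLDP1, ranged from 10800 to 21000 CPM in the 12 ozone libraries and from 17700 to 31300 CPM in the 12 controls. All 3 were called lower under ozone in Te, CT101 and Col-0 and 1 of the 3 in C24, and their part in the JAZ results was not tested. The summed level of 4 root markers was at most 0.789 CPM under ozone and 0.942 CPM in controls, with EXPA7 at 0 in 7 of the 8 groups. The summed level of 4 flower markers was at most 1.40 and 2.59 CPM, with AP3 at 0 in 3 groups. The only root marker with enough counts to be tested, NRT2.1, was called lower in the mean over the lines (-0.84 ± 0.35, adjusted p = 0.032) and in no single line. The only flower marker tested, AG, was called lower under ozone in CT101 (-2.59 ± 0.60), in Col-0 (-1.87 ± 0.40) and in the mean (-1.45 ± 0.28), and the part of these markers in the JAZ results was not tested either. In RNA of whole rosettes, fewer cells of a type and less RNA per cell cannot be told apart.

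**Figure D1:**
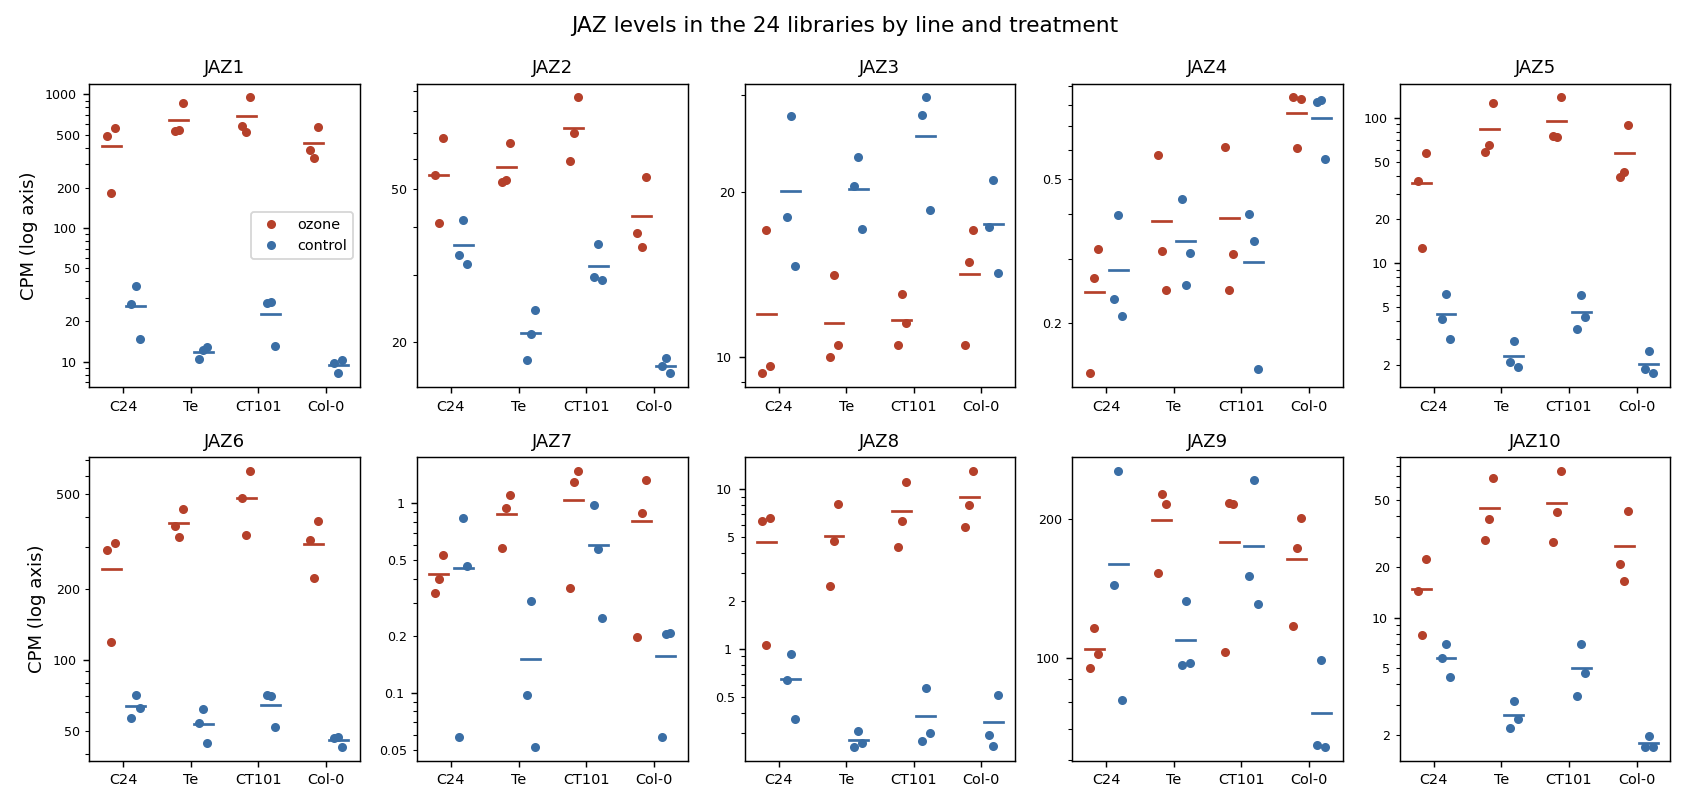
Level of each JAZ locus in CPM, on a log axis, in the 24 libraries by line, with ozone libraries in red to the left of controls in blue; points are libraries and bars are group means of 3. JAZ1, JAZ5, JAZ6, JAZ8 and JAZ10 do not overlap between ozone and control libraries in any of the 4 lines, while JAZ4 overlaps in all 4. The share of all genes without such overlap was not counted.

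JAZ1, JAZ2 and JAZ10 carry all 6 JAZ1 degron residues in their longest coding model. RefSeq gives 6 coding models for JAZ10, and counts per locus do not tell them apart. JAZ1, the first described target of COI1, stood at 487, 182 and 561 CPM in the C24 ozone libraries, against 26.8, 36.6 and 14.8 CPM in C24 controls. In Te it stood at 529, 546 and 865 CPM under ozone and at 10.5, 12.3 and 12.8 CPM in controls. Every ozone library of these lines was above every control library, and C24 ozone replicate 2 was the lowest ozone library. In CT101 JAZ1 stood at 585, 524 and 950 CPM under ozone and at 27.7, 28.0 and 13.1 CPM in controls. In Col-0 it stood at 385, 333 and 571 CPM under ozone and at 9.84, 8.18 and 10.3 CPM in controls. The groups of these lines did not overlap either. JAZ1 rose 15.7-fold in C24 (log2 fold change 3.97 ± 0.43 SE, adjusted p = 5.1e-07), 54.4-fold in Te (5.77 ± 0.47, adjusted p = 3.1e-09), 29.9-fold for CT101 (4.90 ± 0.44) and 45.6-fold for Col-0 (5.51 ± 0.46), the largest mean effect of the 10 members at 5.04 ± 0.22.

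JAZ2, the nearest relative of JAZ1 and known for its part in stomatal reopening by the bacterial toxin coronatine, moved far less than JAZ1. It stood at 54.4, 40.8 and 67.9 CPM in C24 ozone libraries, against 33.8, 41.6 and 32 CPM in C24 controls. The lowest C24 ozone library lay below the highest control, whereas the groups were apart in the other lines. Its log2 fold change was 0.60 ± 0.19 in C24 (adjusted p = 0.012), 1.44 ± 0.19 in Te, 1.19 ± 0.19 for CT101 and 1.29 ± 0.19 for Col-0, each called. The C24 call was lost without C24 control replicate 3 (0.52) and without C24 ozone replicate 3 (0.42).

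JAZ10, whose loss makes roots oversensitive to jasmonate, stood at 14.3, 7.85 and 22.2 CPM in C24 ozone libraries, against 5.76, 6.97 and 4.44 CPM in C24 controls. In Te it stood at 29, 38.5 and 67.5 CPM under ozone and at 2.20, 3.16 and 2.48 CPM in controls. The C24 groups did not overlap, with 7.85 CPM in the lowest ozone library, replicate 2, and 6.97 CPM in the highest control. In Te the lowest ozone library had 29 CPM and the highest control 3.16 CPM. In CT101 JAZ10 stood at 28.0, 42.8 and 74.5 CPM under ozone and at 3.42, 6.95 and 4.66 CPM in controls. In Col-0 it stood at 20.8, 16.4 and 43.0 CPM under ozone and at 1.69, 1.97 and 1.70 CPM in controls. Here too the groups did not overlap. JAZ10 rose by a log2 fold change of 1.37 ± 0.44 in C24 (adjusted p = 0.014), 4.10 ± 0.48 in Te (adjusted p = 4.4e-07), 3.27 ± 0.45 for CT101 and 3.88 ± 0.49 for Col-0. The C24 call was lost without C24 control replicate 3 (1.21) and without C24 ozone replicate 3 (0.96).

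JAZ5 and JAZ6, a pair of close relatives, both rose in all 4 lines with no overlap between ozone and control libraries. JAZ5 ranged from 12.7 to 138 CPM over the 12 ozone libraries, with a median of 61.6 CPM, and from 1.75 to 6.18 CPM over the 12 controls, with a median of 2.97 CPM. Its log2 fold change was 2.99 ± 0.49 in C24 (adjusted p = 5.9e-05), 5.18 ± 0.54 in Te, 4.37 ± 0.50 for CT101 and 4.78 ± 0.53 for Col-0. JAZ6 ranged from 119 to 627 CPM under ozone and from 42.7 to 71.2 CPM in controls. JAZ6 thus started from a high control level and rose less than JAZ5, by 1.93 ± 0.29 in C24 (adjusted p = 2.1e-05), 2.82 ± 0.30 in Te, 2.91 ± 0.30 for CT101 and 2.76 ± 0.30 for Col-0. C24 ozone replicate 2 was the lowest ozone library for both genes.

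**Figure D2:**
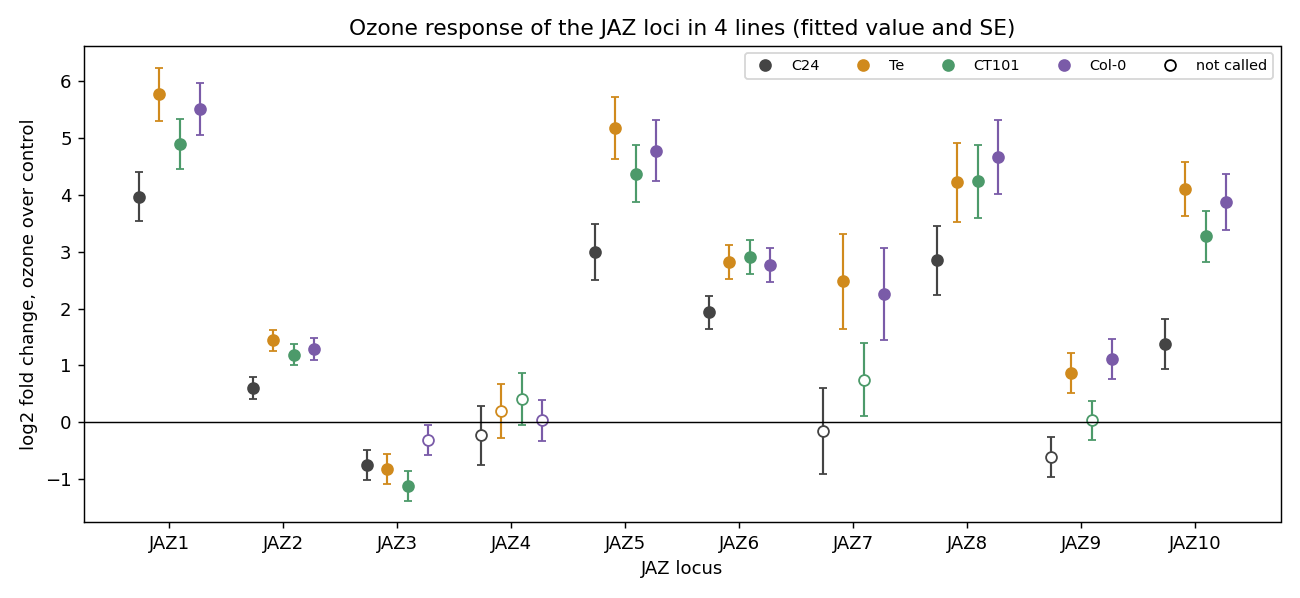
Log2 fold change of each JAZ locus under ozone over control in C24, Te, CT101 and Col-0, with the standard error derived from the edgeR F statistic. Filled points are called at an adjusted p under 0.05 and open points are not. JAZ1 spans 3.97 to 5.77 and JAZ3 lies below 0 in every line, from -1.12 to -0.31.

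JAZ3, JAZ4 and JAZ9 are close relatives whose degron, like that of JAZ5 and JAZ6, shares part of the JAZ1 residues. JAZ3, the member through which a dominant jasmonate-insensitive mutant was found, was the member that fell. It stood at 9.32, 17.0 and 9.61 CPM in C24 ozone libraries, against 18, 27.5 and 14.6 CPM in C24 controls. In Te it stood at 9.98, 14.1 and 10.5 CPM under ozone and at 20.5, 23.1 and 17.1 CPM in controls. The C24 groups overlapped through ozone replicate 2, and the Te groups did not overlap. In CT101 JAZ3 stood at 10.5, 13 and 11.5 CPM under ozone and at 27.6, 29.7 and 18.5 CPM in controls. In Col-0 it stood at 10.5, 14.9 and 17.0 CPM under ozone and at 17.2, 21.0 and 14.2 CPM in controls. CT101 libraries were apart and Col-0 libraries overlapped. JAZ3 fell by 1.12 ± 0.26 in CT101 on the log2 scale (adjusted p = 0.00081), by 0.82 ± 0.26 in Te (adjusted p = 0.01) and by 0.75 ± 0.26 in C24 (adjusted p = 0.022), while the value of -0.31 ± 0.26 in Col-0 was not called. The C24 call was lost when only C24 libraries were fitted (adjusted p = 0.086) and without C24 control replicate 2 (-0.45), C24 ozone replicate 1 (-0.59) or C24 ozone replicate 3 (-0.61), and the Te call without Te ozone replicate 1 (-0.72).

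JAZ9 had the highest control level per length of the 10 members and was called under ozone in 2 of the 4 lines. The test of any difference of response among the lines did not call it (adjusted p = 0.077). That test called JAZ9 with the replicate block, in DESeq2 and without C24 control replicate 3. Its response difference between Col-0 and C24, 1.72 ± 0.50, was not called (adjusted p = 0.066). The same alternatives called that difference, as did omission of Col-0 control replicate 2. JAZ9 stood at 94.9, 116 and 102 CPM in C24 ozone libraries, against 144, 254 and 80.7 CPM in C24 controls. In Te it stood at 153, 227 and 216 CPM under ozone and at 96.3, 133 and 97.5 CPM in controls. C24 controls were spread widely around the narrow C24 ozone group, whereas the Te groups were apart. In CT101 JAZ9 stood at 103, 217 and 216 CPM under ozone and at 150, 243 and 131 CPM in controls. In Col-0 it stood at 117, 173 and 201 CPM under ozone and at 64.5, 98.8 and 63.9 CPM in controls. CT101 groups overlapped and Col-0 groups did not. JAZ9 rose by 0.87 ± 0.35 in Te (adjusted p = 0.038) and by 1.11 ± 0.35 in Col-0 (adjusted p = 0.011), and the values of -0.61 ± 0.35 in C24 and 0.03 ± 0.35 in CT101 were not called.

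The JAZ9 calls depended on single libraries and settings. That in Te was lost with library totals alone (0.73), with no filter on low counts (0.86), without ozone replicate 2 in all lines (0.71) and without Te control replicate 1 (0.80) or 3 (0.79) or Te ozone replicate 2 (0.76) or 3 (0.80), and that in Col-0 without ozone replicate 2 in all lines (1.00), Col-0 control replicate 3 (0.99) or Col-0 ozone replicate 3 (0.93). In C24 JAZ9 was called lower without C24 control replicate 3 (-0.94). The mean effect of 0.35 ± 0.17 was not called (adjusted p = 0.076), but was with the replicate block (0.37) and without C24 control replicate 2 (0.47), CT101 control replicate 2 (0.42), CT101 ozone replicate 1 (0.42), Col-0 control replicate 2 (0.41) or Col-0 ozone replicate 1 (0.40).

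JAZ4 was near the limit of detection, with 3 to 17 counts in the ozone libraries and 3 to 20 counts in the controls. It was not called in any line, with log2 fold changes of -0.23 ± 0.52 in C24, 0.20 ± 0.47 in Te, 0.41 ± 0.46 for CT101 and 0.03 ± 0.36 for Col-0. At this depth its response was not resolved.

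JAZ7 and JAZ8, short proteins without the canonical degron that can recruit the corepressor through a repression motif of their own, had low counts too. JAZ8 stood at 6.33, 1.06 and 6.62 CPM in C24 ozone libraries, against 0.640, 0.939 and 0.366 CPM in C24 controls. In Te it stood at 2.50, 4.74 and 8.14 CPM under ozone and at 0.244, 0.306 and 0.259 CPM in controls. No ozone library of these lines fell into the control range, and C24 ozone replicate 2, with 16 counts, came nearest to it. In CT101 JAZ8 stood at 4.38, 6.34 and 11.2 CPM under ozone and at 0.267, 0.575 and 0.297 CPM in controls. In Col-0 it stood at 5.82, 8.03 and 13 CPM under ozone and at 0.291, 0.247 and 0.516 CPM in controls. The control libraries of all 4 lines held 5 to 19 counts of JAZ8. It rose by a log2 fold change of 2.85 ± 0.61 in C24 (adjusted p = 0.00081), 4.22 ± 0.70 in Te (adjusted p = 3e-05), 4.24 ± 0.64 for CT101 and 4.66 ± 0.65 for Col-0.

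JAZ7 had 4 to 24 counts in the ozone libraries and 1 to 22 counts in the controls. It rose in Te (log2 fold change 2.48 ± 0.84, adjusted p = 0.013) and Col-0 (2.25 ± 0.81, adjusted p = 0.02), and was not called in C24 (-0.15 ± 0.76) or CT101 (0.75 ± 0.64). The Te libraries did not overlap, whereas Col-0 ozone replicate 1, with 4 counts, lay within the control range. The Te call was lost without Te control replicate 3 (2.09), and the Col-0 call without ozone replicate 2 in all lines (2.08), Col-0 control replicate 1 (1.92) or Col-0 ozone replicate 3 (1.75).

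Scaled by length, the make-up of the 10 members changed with ozone. The family sum below is over these members alone and leaves out the JAZ genes JAZ11, JAZ12 and JAZ13. CPM per kb of annotated exons within each locus, summed over the 10 members, averaged 565 ± 214 in C24 ozone libraries and 214 ± 84.5 in C24 controls (mean ± SD, n = 3 in each group here). In Te it averaged 918 ± 212 under ozone and 146 ± 21.4 in controls, in CT101 1010 ± 294 under ozone and 222 ± 59.6 in controls, and in Col-0 681 ± 183 under ozone and 111 ± 17.2 in controls. JAZ1 held 36.8% to 50.2% of the family sum in the ozone libraries and 4.09% to 8.95% in the controls. JAZ9 held 9.12% to 27% under ozone and 43.5% to 63.6% in controls. JAZ1 thus held a larger share than JAZ9 in every ozone library and a smaller one in every control library, and JAZ9 took its largest ozone share in C24 ozone replicate 2. JAZ6 came next, with 23.0% to 26.7% of the family sum in the ozone groups and 16.2% to 22.9% in the control groups. Exons were joined over all RefSeq models, so the length of JAZ1 counts its whole span of 1527 bases as exon, which lowers its value per kb. The length of JAZ10 counts 1919 of 1996 bases and that of JAZ5 1605 of 1725, whereas that of JAZ9 counts 1329 of 2297. Shares of different members thus rest on unequal parts of their spans. These shares have no test of their own.

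**Figure D3:**
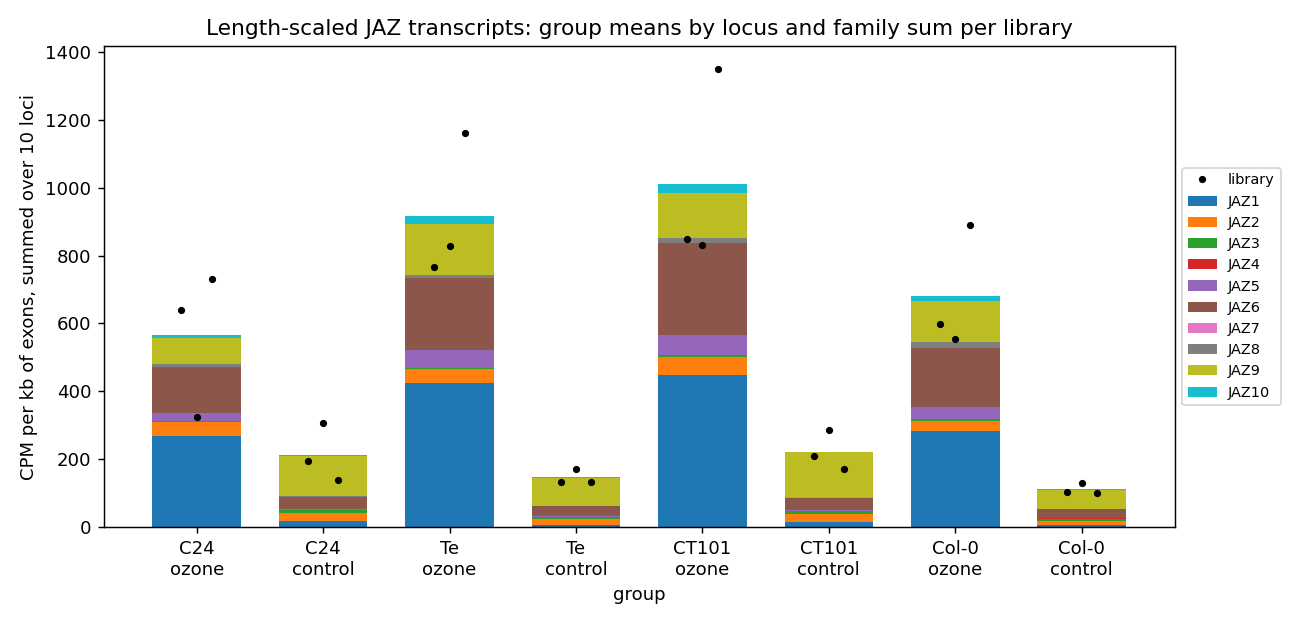
CPM per kb of exons of JAZ1 to JAZ10 as stacked group means, with ozone left of control in each line. Black points are the sum over these 10 loci in each library. Ozone libraries range from 324 to 1350 CPM per kb and control libraries from 99.7 to 306, with JAZ1 the largest segment under ozone and JAZ9 the largest in controls.

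The design sets the lines against each other, so the ozone response of each line was compared with that of the others. JAZ10 was called in the test of any difference among the 4 lines (adjusted p = 0.023), the single member of 10, where 9.54% of all genes were called. An unadjusted p under 0.05 was reached by 5 members. The share of all genes under that unadjusted threshold is not given, here or in the comparisons below. JAZ10 rose more in Te than in C24, by 2.73 ± 0.64 on the log2 scale (adjusted p = 0.0093), and more in Col-0 than in C24, by 2.51 ± 0.65 (adjusted p = 0.037). JAZ1 rose more in Te than in C24, by 1.79 ± 0.55 (adjusted p = 0.043). In the comparison of Te with C24 2 members were called higher, where 7.77% of all genes were, and in that of Col-0 with C24 1 member was, where 2.86% were. In the comparison of CT101 with C24 0 members were called, where 9.71% of all genes were called in either direction. There the JAZ10 difference was 1.90 ± 0.61 (adjusted p = 0.054), 3 members had an unadjusted p under 0.05, and DESeq2 called 1, JAZ10.

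For JAZ10 the group means differed at both ends of the response. The ozone groups of 2 lines were not tested against each other. Its control difference was not called between Te and C24 (-1.13 ± 0.48, adjusted p = 0.086) and was called between Col-0 and C24 (-1.67 ± 0.51, adjusted p = 0.018). Its ozone level was 45.0 ± 20 CPM in Te and 14.8 ± 7.17 CPM in C24, and its control level was 2.61 ± 0.494 CPM in Te and 5.72 ± 1.27 CPM in C24 (SD, n = 3). Its ozone level in Col-0 was 26.7 ± 14.3 CPM and its control level 1.79 ± 0.16 CPM. For JAZ1 the ozone level was 647 ± 189 CPM in Te and 410 ± 201 CPM in C24, and the control level was 11.9 ± 1.21 CPM in Te and 26.1 ± 10.9 CPM in C24.

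Members that missed the threshold had positive differences as well. The difference between Te and C24 was 2.18 ± 0.69 for JAZ5, which missed the threshold at an adjusted p of 0.05, 0.83 ± 0.27 for JAZ2 (adjusted p = 0.052), 1.48 ± 0.50 for JAZ9 (adjusted p = 0.067) and 0.89 ± 0.39 for JAZ6 (adjusted p = 0.17). That of JAZ3 was -0.07 ± 0.37. The median over the 10 members was 1.42 for Te against C24, 0.91 for CT101 against C24 and 1.63 for Col-0 against C24, where the median of all genes was 0, 0 and 0.01. These comparisons share the C24 libraries and are not independent of each other.

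Among Te, CT101 and Col-0 0 members were called in any comparison of the response by edgeR or DESeq2. Of all genes 0.321% were called in either direction between CT101 and Te, 0.954% between Te and Col-0 and 1.60% between CT101 and Col-0. The members with an unadjusted p under 0.05 were 0, 0 and 2. The JAZ10 difference was -0.83 ± 0.63 between CT101 and Te, 0.22 ± 0.67 between Te and Col-0 and -0.61 ± 0.65 between CT101 and Col-0. With these standard errors a JAZ10 difference of 1 log2 unit was not resolved.

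**Figure D4:**
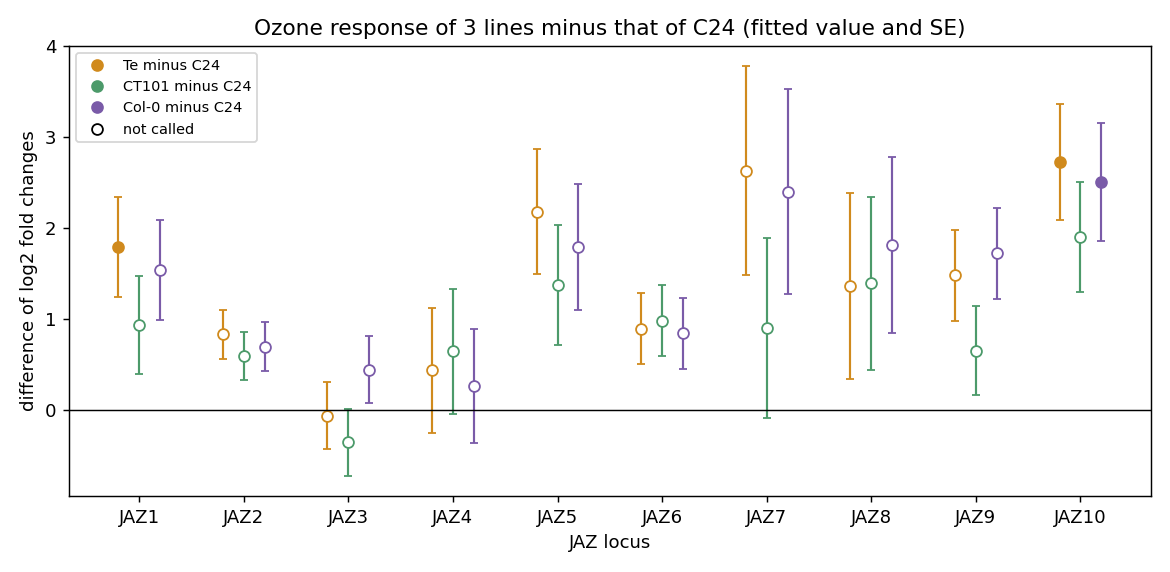
Ozone response of Te, CT101 and Col-0 minus that of C24 for each JAZ locus, as a difference of log2 fold changes with its standard error; filled points are called. The called values are 1.79 for JAZ1 and 2.73 for JAZ10 in Te and 2.51 for JAZ10 in Col-0, while JAZ3 lies between -0.36 and 0.44.

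The JAZ10 difference between Te and C24 was called in 19 of 19 alternatives (adjusted p from 2e-04 to 0.034), whereas the JAZ1 difference held in 9 of 19 (0.012 to 0.14) and the JAZ10 difference between Col-0 and C24 in 7 of 19 (0.002 to 0.12). For JAZ1 the call was lost with no filter on low counts (1.77), in a fit of Te and C24 libraries alone (1.79), without ozone replicate 2 in all lines (1.52) and without C24 control replicate 1 (1.77) or 2 (1.47), C24 ozone replicate 2 (1.44), Te control replicate 1 (1.72), 2 (1.82) or 3 (1.85) or Te ozone replicate 3 (1.52). For JAZ10 in Col-0 it was lost with no filter (2.50), in a fit of Col-0 and C24 libraries alone (2.52), without ozone replicate 2 in all lines (2.44) and without C24 control replicate 1 (2.49) or 2 (2.34), C24 ozone replicate 1 (2.48) or 2 (2.21), Col-0 control replicate 1 (2.47), 2 (2.59) or 3 (2.46) or Col-0 ozone replicate 1 (2.66) or 3 (1.99). The test among all 4 lines lost JAZ10 without ozone replicate 2 in all lines (adjusted p = 0.056), C24 control replicate 1 (0.054) or 2 (0.078) or C24 ozone replicate 1 (0.057) or 2 (0.07), and called 3 members without C24 ozone replicate 3 and 2 without C24 control replicate 3. The count for Te against C24 was 5 with the replicate block and in DESeq2, where JAZ2, JAZ5 and JAZ9 joined JAZ1 and JAZ10. It was 5 without C24 control replicate 3, 4 without C24 ozone replicate 3, and 3 without Te ozone replicate 1 or 2, where JAZ5 was called. For CT101 against C24 2 members were called without C24 ozone replicate 3 or CT101 ozone replicate 2, and 1 without CT101 control replicate 2 or CT101 ozone replicate 1. For Col-0 against C24 2 were called without C24 control replicate 3. The share of all genes called in each of these settings is not given, so these counts are not read as results about the members.

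The unexposed plants of the 4 lines were compared as well. In the test of any difference among control groups 5 members were called, JAZ1, JAZ2, JAZ4, JAZ9 and JAZ10, where 36.4% of all genes were called, a share near that of the members. That count was 3 with no filter, without Te control replicate 1 and without replicate 2 or 3 of the Col-0 controls, and 2 when their replicate 1 was left out. It was 6 in DESeq2, where JAZ5 was called too, and 6 in a fit of the controls alone, where JAZ5 and JAZ6 were called and JAZ9 was not. Col-0 controls had lower levels than C24 controls in 4 members and a higher level in 1, where 14.7% and 11.7% of all genes were lower and higher. JAZ1 was lower in Col-0 than in C24 (log2 difference -1.47 ± 0.40, adjusted p = 0.0096), as were JAZ2 (-1.04 ± 0.19, adjusted p = 0.00031), JAZ9 (-1.07 ± 0.35, adjusted p = 0.029) and JAZ10 (-1.67 ± 0.51, adjusted p = 0.018). JAZ4 was higher in Col-0 controls, at 0.735 CPM, than in C24 controls, at 0.279 CPM (1.36 ± 0.42, adjusted p = 0.018). This call rests on 45 counts summed over the Col-0 controls and 16 over the C24 controls. Reads of all lines were placed on the genome of Col-0, and the part of that choice in this difference was not tested. Col-0 and C24 control libraries did not overlap for JAZ1, JAZ2, JAZ4 and JAZ10 and overlapped for JAZ9, and the share of all genes without overlap was not counted. JAZ2 held in every alternative (adjusted p from 4.7e-06 to 0.0028), whereas 1 or more of the other calls were lost without C24 control replicate 2 (JAZ1 -1.14, JAZ9 -0.56, JAZ10 -1.49), C24 control replicate 1 (JAZ4 1.28) or 3 (JAZ4 1.19), Col-0 control replicate 1 (JAZ4 1.30, JAZ9 -0.97, JAZ10 -1.63), 2 (JAZ4 1.27) or 3 (JAZ9 -0.95, JAZ10 -1.62), and JAZ9 also in a fit of Col-0 and C24 controls alone (adjusted p = 0.12), which called JAZ5 and JAZ6 in addition.

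Te controls were lower than C24 controls in 2 members, where 17.7% of all genes were lower. JAZ1 averaged 11.9 CPM in Te controls and 26.1 CPM in C24 controls (-1.14 ± 0.40, adjusted p = 0.035), and JAZ2 averaged 21.1 CPM in Te controls and 35.8 CPM in C24 controls (-0.76 ± 0.19, adjusted p = 0.0041). The JAZ2 call held in 12 of 12 alternatives and that of JAZ1 in 6, being lost with no filter (-1.10) and without C24 control replicate 1 (-1.11) or 2 (-0.81) or Te control replicate 1 (-1.06), 2 (-1.16) or 3 (-1.19). JAZ10 was not called (adjusted p = 0.086), but was with the replicate block (0.043), whose equally numbered libraries correlated by 0.21 to 0.348 between these groups, with library totals alone (0.049), in DESeq2 (0.04) and in a fit of Te and C24 controls alone (0.0033). That last fit called JAZ5 as well.

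CT101 controls stood above Col-0 controls in 3 members, JAZ1 (1.29 ± 0.40, adjusted p = 0.032), JAZ2 (0.86 ± 0.19, adjusted p = 0.0028) and JAZ9 (1.21 ± 0.35, adjusted p = 0.023), and below them in JAZ4 (-1.29 ± 0.41, adjusted p = 0.031). Of all genes 7.60% were higher and 8.06% lower. JAZ2 again held in 12 of 12 alternatives. JAZ10, at 1.47 ± 0.51, was not called (adjusted p = 0.055), but was with the replicate block (0.027), in DESeq2 (0.0075), in a fit of CT101 and Col-0 controls alone (0.0099) and without CT101 control replicate 1 (0.046). The block called 6 members, JAZ3 among them, and the fit of these controls alone called 6, JAZ5 and JAZ6 among them. The JAZ1 call was lost with no filter (1.28) and without CT101 control replicate 1 (1.12) or 2 (1.13) or Col-0 control replicate 1 (1.33), 2 (1.2) or 3 (1.35). That of JAZ9 was lost without CT101 control replicate 2 (0.90) or Col-0 control replicate 1 (1.11) or 3 (1.09), and that of JAZ4 with no filter (adjusted p = 0.051), in a fit of CT101 and Col-0 controls alone (0.082), in DESeq2 (0.075) and without CT101 control replicate 2 (-1.37) or 3 (-0.98) or Col-0 control replicate 1 (-1.21) or 2 (-1.18).

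The other control comparisons called 0 members by edgeR and by DESeq2. Of all genes 16.6% were called between CT101 and C24, 5.23% between CT101 and Te and 15.8% between Te and Col-0, and the members with an unadjusted p under 0.05 were 0, 3 and 1. With the replicate block JAZ2 was called between CT101 and Te and JAZ4 between Te and Col-0. With library totals alone JAZ4 was called between Te and Col-0 as well.

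Ranked by mean level, all 4 ozone groups stood above all 4 control groups for JAZ1, in the order CT101, Te, Col-0 and C24 under ozone at 686, 647, 430 and 410 CPM, and C24, CT101, Te and Col-0 in controls at 26.1, 22.9, 11.9 and 9.43 CPM. JAZ10 had the same order under ozone and in controls. The ozone groups next to each other overlapped for both genes, and among the controls C24 and CT101 overlapped while Te and Col-0 stood apart from their neighbours. For JAZ3, JAZ4 and JAZ9 all 7 pairs of neighbouring groups overlapped.

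The genes whose group means over the 8 groups were most like those of a member, by the root mean square of the differences between centred log2 CPM, are given as a description. The nearest to JAZ1 of 20554 genes were LOX4, a lipoxygenase of jasmonate synthesis, at 0.27, and the ammonium transporter gene AMT2 at 0.28. Those nearest to JAZ5 were ERF11, an ethylene response factor, at 0.22, and IAR3, an amidohydrolase that cleaves amino acid conjugates of hormones, at 0.24. Those nearest to JAZ9 were RGL3, a DELLA protein of gibberellin signalling, at 0.14, and MYC2 at 0.17. For JAZ10 they were AT3G13900 at 0.22 and CYP94C1, a cytochrome P450 that oxidises the hormone, at 0.30, and for JAZ8 AT3G50900 at 0.20 and CYP82C2 at 0.21. JAZ2 had AT1G67650 at 0.12 and AT3G61980 at 0.14, JAZ3 the sulfate transporter gene SULTR2;1 and XBCP3 at 0.06 each, and JAZ6 AT2G04400 at 0.12 and FUT10 at 0.13. JAZ4 had AT2G29710 at 0.12 and SAMBA at 0.13, and JAZ7 AT5G59700 at 0.21 and AT4G36648 at 0.26.

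Around the members, genes of jasmonate synthesis and breakdown were followed through lists chosen for their textbook roles, with earlier results of these data known. Of 13 synthesis genes 7 rose and 4 fell in C24, 7 rose and 2 fell in Te and in CT101, and 8 rose and 1 fell in Col-0, to be read against the shares of all genes above. AOC3, an allene oxide cyclase, averaged 200 ± 101 CPM in C24 ozone libraries and 18.9 ± 5.29 CPM in C24 controls, and 569 ± 198 CPM in Te ozone libraries and 11.6 ± 1.30 CPM in Te controls (SD, n = 3). Its mean effect over the 4 lines was 5.26 ± 0.24 on the log2 scale, and that of LOX4 was 4.95 ± 0.21. Other members of the same enzyme families went the other way, AOC4 falling by 0.68 ± 0.06 and LOX2 by 0.59 ± 0.24 (adjusted p = 0.03). The LOX2 call was lost with no filter (-0.58) and without C24 control replicate 2, C24 ozone replicate 1 or 3, Te control replicate 3, Te ozone replicate 1 or 3, CT101 control replicate 2, CT101 ozone replicate 1 or 3, Col-0 control replicate 2 or Col-0 ozone replicate 1 (-0.56 to -0.51).

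Of 9 tested breakdown genes of 10, 3 rose in C24, 7 in Te, 6 for CT101 and 8 for Col-0, and 0 fell. IAR3 averaged 480 ± 255 CPM in C24 ozone libraries and 62.7 ± 19.3 CPM in C24 controls, and 1140 ± 218 CPM in Te ozone libraries and 30.4 ± 2.59 CPM in Te controls. Its mean effect was 4.39 ± 0.20, that of AT5G05600 was 3.23 ± 0.25 and that of ST2A, the sulfotransferase of hydroxylated jasmonate, was 0.91 ± 0.34 (adjusted p = 0.02). The ST2A call was lost without C24 ozone replicate 2 (0.80) and without ozone replicate 2 in all lines (0.64). CYP94B3, which oxidises the hormone, was not called in any line and had 3 counts in all in Te controls and in Col-0 controls, so no fold is given.

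Of 17 genes of perception and of proteins that bind JAZ repressors, 7 rose and 2 fell in C24, 9 and 4 in Te, 8 and 4 in CT101 and 10 and 4 in Col-0. Of all genes 25.6% rose and 22.2% fell in C24, 32% and 30.9% in Te, 32.9% and 32.4% for CT101 and 30.0% and 26.9% for Col-0, and the counts of every list here are to be read against these shares. COI1 was not called, with a mean effect of 0.08 ± 0.07 that became -0.03 with library totals alone. MYC2 rose by 0.45 ± 0.13 in the mean (adjusted p = 0.0032) and was called in Te (0.79) and Col-0 (1.02), the 2 lines in which JAZ9 was called, and not in C24 or CT101. The Te call of MYC2 was lost without ozone replicate 2 in all lines (0.70). NINJA rose by 0.13 ± 0.05 (adjusted p = 0.019), a call lost with library totals alone (0.01) and without ozone replicate 2 in all lines (0.06). MYC4, a relative of MYC2, fell by 2.01 ± 0.10, and NIG1 (AT5G46830), another basic helix-loop-helix gene, had the lowest mean effect of the list at -2.62 ± 0.17. JAV1, a repressor of jasmonate defence that is degraded after wounding, rose by 4.31 ± 0.18, and AIB (AT2G46510), a transcriptional repressor that competes with MYC2, by 1.31 ± 0.11.

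Of 6 tested output genes of 7, 2 rose and 2 fell in C24, 3 rose in Te and in Col-0, and 3 rose and 1 fell in CT101. ORA59, the regulator of the ethylene and jasmonate defence branch, rose by 5.37 ± 0.22 in the mean, and TAT3, an aminotransferase gene used as a jasmonate marker, by 4.70 ± 0.44. The C24 call of TAT3 was lost without C24 control replicate 1 (2.23) or 3 (1.98) or C24 ozone replicate 3 (1.96). The vegetative storage protein gene VSP2, a target of the MYC branch, fell by 1.33 ± 0.49 in the mean (adjusted p = 0.018) and by 3.15 in C24 (adjusted p = 0.019), the C24 call being lost without C24 control replicate 2 (-2.31) or C24 ozone replicate 1 (-2.86) or 3 (-2.74). VSP1 fell by 3.08 in C24 (adjusted p = 0.0064), and its mean effect of -0.88 ± 0.40 was not called (adjusted p = 0.055). That mean effect was called with library totals alone (-0.99), the replicate block (-1.01), DESeq2 (-0.86), without ozone replicate 2 in all lines (-1.56) and without C24 control replicate 3 (-1.0), C24 ozone replicate 2 (-1.04), Te ozone replicate 2 (-1.09), CT101 control replicate 1 (-0.97) or CT101 ozone replicate 2 (-1.10).

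The 9 other genes of the TIFY family, to which the JAZ genes belong, were followed as well, JAZ11, JAZ12 and JAZ13 (AT3G22275) among them. In C24 2 rose and 3 fell, in Te 2 and 4, in CT101 3 and 2 and in Col-0 2 and 2, shares near those of all genes. The C24 call of PPD1 was lost without C24 control replicate 1 (-0.64) or 3 (-0.58) or C24 ozone replicate 1 (-0.54) or 3 (-0.58), that of ZML2 with library totals alone (0.26), in a fit of C24 alone (adjusted p = 0.1) and without C24 control replicate 3 (0.29) or C24 ozone replicate 1 (0.22), and that of TIFY8 without C24 ozone replicate 3 (-0.64). The Te call of PPD1 was lost in a fit of Te alone (-0.67) and without Te control replicate 1 (-0.49) or Te ozone replicate 2 (-0.62) or 3 (-0.52), and the Col-0 call of ZML2 with library totals alone (0.25) and without Col-0 control replicate 3 (0.31) or Col-0 ozone replicate 1 (0.36) or 3 (0.31). TIFY8 had the lowest mean effect at -1.39 ± 0.11, followed by PPD1, a regulator of leaf growth, at -0.68 ± 0.12, while ZML2 rose by 0.57 ± 0.07. The value of AT3G22275, 0.92 ± 0.46, was not called (adjusted p = 0.07), but was without Te control replicate 2 (1.11), Te ozone replicate 1 (1.01) or Col-0 ozone replicate 1 (1.04). The median mean effect was 0.01 for the TIFY genes, 0.45 for perception and partners, 1.53 for synthesis, 2.60 for breakdown and 1.11 for outputs, beside 1.97 for the JAZ members and -0.03 for all genes.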

How the data were processed

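Per the labels, total RNA of pooled rosettes was made into libraries by TruSeq RNA v2 chemistry. According to the submitters' processing notes, FastQC, Bowtie2, SAMtools and HTSeq were used on the TAIR10 build. That build is the genome of the reference accession Col-0. The effect of sequence differences of the other lines on their counts was not tested. Versions, order and strand setting are not given in the sources used here. Each library has 1 deposited table of raw counts, whole numbers of reads at each locus.

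The software was edgeR 4.0.16 with limma 3.58.1 under R 4.3.3. The low-count filter was filterByExpr with a minimum count of 10 and a minimum total of 15, normalization used TMM factors, and a robust quasi-likelihood fit gave 1 mean to each group over 24 libraries. Contrasts were 2-sided with Benjamini-Hochberg adjustment over 20554 genes. The standard error was derived from the test, as the absolute unshrunk log2 fold change divided by the square root of the F statistic. CPM uses the TMM-scaled library sizes, and log2 CPM a prior count of 2. Alternatives were RLE factors, library totals alone, no filter, DESeq2 1.42.0, a replicate block, the compared libraries alone, omission of each library in turn and omission of ozone replicate 2 in all lines. The code was tested on simulated counts with known changes.

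All 10 JAZ loci are named, with the 2 nearest genes each, the 2 highest and 2 lowest genes of each list by mean log2 fold change, and COI1, MYC2 and NINJA. The members and lists were chosen with earlier results of these data known. Sequences, exons and symbols come from RefSeq on TAIR10.1. All 31912 of 32399 nuclear loci found there had the same chromosome and strand and an overlapping span, and exons were limited to the span in the count tables. No JAZ locus overlaps another locus of the tables, and 0 exonic stretches of 50 bases of a JAZ gene occur elsewhere in the genome. Equally numbered libraries were checked for pairing by correlating residuals. Of 12 group pairs of equal treatment 11 had every correlation over 0.1 (lowest 0.019, CT101 and Col-0 controls). Ozone and control of 1 line passed in C24 and CT101 and not in Te or Col-0. The replicate block was fitted as an alternative and is given beside results whose call it changed.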

Additional observations from a re-analysis of the deposited data

Results flagged for a closer look

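The ozone response of JAZ10 differed among the 4 lines in the test of the difference itself (edgeR adjusted p = 0.023). It was larger in Te than in C24 by 2.73 ± 0.64 on the log2 scale and larger in Col-0 than in C24 by 2.51 ± 0.65. The response of JAZ1 was larger in Te than in C24 by 1.79 ± 0.55. The 3 differences share the C24 libraries, of which C24 ozone replicate 2 stood apart from the other C24 ozone libraries. Without that library the test among the 4 lines no longer called JAZ10 (adjusted p = 0.07), nor did it without C24 control replicate 1 (0.054) or 2 (0.078), C24 ozone replicate 1 (0.057) or ozone replicate 2 of all lines (0.056). Without C24 ozone replicate 2 the JAZ10 difference between Te and C24 was still called, and those of JAZ10 between Col-0 and C24 (2.21) and of JAZ1 between Te and C24 (1.44) were not. The part of that library in these differences was otherwise not tested.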

How the results depend on the processing

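The replicate block called 2 members (JAZ9, JAZ10) for any difference of response among lines, 5 for Te against C24, 1 (JAZ10) for CT101 against C24 and 2 (JAZ9, JAZ10) for Col-0 against C24, and 1 each for controls of CT101 against Te and of Te against Col-0. It ended no call of a member. For this and every other alternative, the share of all genes called is not given beside the count of members. DESeq2 called 4, 5, 1 and 2 in the same 4 response comparisons. Without ozone replicate 2 in all lines these counts were 0, 1, 1 (JAZ6) and 0. With no filter on low counts the count was 1 for the response of Te against C24, 0 for Col-0 against C24, 3 for any difference among controls, 1 for Te against C24 controls and 2 for CT101 against Col-0 controls. Fits of the compared libraries alone gave 1 for the response of Te against C24, 0 for Col-0 against C24 and 4 for Te against C24 controls. Library totals alone moved the median of all genes to between -0.17 and -0.13 in the ozone comparisons and called 1 member (JAZ4) between Te and Col-0 controls. It turned JAZ9 in CT101 to -0.07, JAZ4 in Col-0 to -0.10 and in the mean to -0.01, and COI1 in the mean to -0.03, and leaving out ozone replicate 2 in all lines turned JAZ9 in CT101 to -0.15, all uncalled.

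Leaving out 1 library at a time, counts ranged from 4 to 7 for ozone in C24, 7 to 9 in Te, 6 to 8 in Col-0 and 8 to 9 in the mean, and stayed at 7 in CT101. They ranged from 0 to 3 for any difference of response, 1 to 5 for Te against C24, 0 to 2 for CT101 against C24 and 0 to 2 for Col-0 against C24. Among controls they ranged from 2 to 5 for any difference, 1 to 2 for Te against C24, 2 to 4 for Col-0 against C24 and 1 to 4 for CT101 against Col-0. Uncalled values changed sign for JAZ4 (-0.49 to 0.12 in C24, -0.26 to 0.45 in Te, -0.11 to 0.70 in CT101, -0.14 to 0.17 in Col-0, -0.03 to 0.19 in the mean), JAZ7 in C24 (-0.62 to 0.63) and JAZ9 in CT101 (-0.14 to 0.33). The cause was not tested. With 3 libraries a group and 1 to 24 counts of JAZ4 and JAZ7 a library, changes of these members were resolved only when large.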

Other observations

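The ozone effects of the members most alike in their coding bases are set side by side here. Identical bases as a share of the shorter coding sequence were 74.1% for JAZ3 and JAZ4, 72.9% for JAZ1 and JAZ2, 72.7% for JAZ7 and JAZ8 and 69.8% for JAZ5 and JAZ6, the highest values of the 45 pairs. The mean log2 ozone effects within these pairs were -0.75 ± 0.13 for JAZ3 and 0.10 ± 0.23 for JAZ4, 5.04 ± 0.22 for JAZ1 and 1.13 ± 0.09 for JAZ2, 1.33 ± 0.39 for JAZ7 and 3.99 ± 0.33 for JAZ8, and 4.33 ± 0.26 for JAZ5 and 2.61 ± 0.15 for JAZ6. The differences within pairs were not tested.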
